A study of Mus musculus with 13 samples.

Results

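The genes described here are 10 genes of the melanosome, the organelle in which pigment cells make and store melanin, namely Tyr, Tyrp1, Dct, Pmel, Mlana, Slc45a2, Oca2, Slc24a5, Gpr143 and Trpm1. They were taken by symbol, through the GENCODE M21 annotation, from the 49315 gene rows of the 2 count tables, and each of the 10 matched 1 row. The study asked what Jag1, a Notch ligand, does in regulatory T cells of mice with B16F10 tumours, a pigmented mouse melanoma line. RNA was sequenced in bulk from whole tumours and from the lymph nodes that drain them (tdLN, called nodes below).

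The mice were females that carried Foxp3eGFP-Cre-ERT2, a Cre recombinase active only after tamoxifen and under the control of Foxp3, the gene that defines regulatory T cells. They carried Jag1 fl/fl (called Foxp3ΔJag1) or, per the design text, Jag1 fl/wt (called Foxp3Ctrl, although a label gives these as WT). Every group was given tamoxifen from an age of 6 to 8 weeks, in 5 doses of 0.1 mg for each gram the mouse weighed. After a gap of 9 days, 200000 B16F10 cells in matrigel were placed in the skin of the left flank of every mouse, which was then at most 11 weeks old. The injected tumour cells are a cell line and do not carry the deletion. The libraries used were 3 Foxp3Ctrl nodes, 3 Foxp3ΔJag1 nodes and 3 Foxp3Ctrl tumours, and the library names give each Foxp3Ctrl node and tumour of one number the same mouse code. The 4 Foxp3ΔJag1 tumours were not analysed here. The p-values below set the difference between groups against the spread between libraries, with 3 libraries per group.

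Melanin is made from tyrosine inside melanosomes. Tyrosinase (Tyr) carries out the rate-limiting oxidation, and its relatives Tyrp1 and Dct act on later intermediates of dark pigment. Pmel forms the fibrils on which melanin is laid down, Mlana binds Pmel, and the membrane proteins Slc45a2, Oca2 and Slc24a5 set the pH and ion content of the organelle. Many of these genes are driven by MITF, the lineage transcription factor of melanocytes, and B16F10 cells keep this programme. A lymph node is built mainly of lymphocytes and stroma, which do not make melanin.

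Total counts were between 32117478 and 44540888 per library. The tissue labels held: summed over 6 B cell markers, the nodes were between 3021 and 3356 CPM (the gene's count scaled to the library's total count) and the tumours between 2.22 and 3.81 CPM. Several libraries stood apart. Foxp3Ctrl node 3 was at 62.1 CPM for 12 keratinocyte markers against 43.9 to 54.6 CPM in the other nodes, at 305 CPM for 8 macrophage markers against 460 to 785 CPM, and at 199.8 CPM for 8 adipocyte markers, where Foxp3ΔJag1 node 1 was at 253 CPM and the other nodes at no more than 84.4 CPM. Tumour 3 was at 275 CPM for 6 skeletal muscle markers against 4.23 and 4.59 CPM in tumours 1 and 2, and at 60.1 CPM for the adipocyte markers against 283 and 318 CPM. Results that rest on Foxp3Ctrl node 3 are therefore given with and without it.

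Promoter sequence was compared for the members where a window was given. RefSeq promoter windows (GRCm38.p6, 250 bases before to 50 after a start) were present in the reference table for 6 of the 10 genes, in 7 windows, Trpm1 having 2. Promoters of Pmel, Mlana, Slc45a2 and Gpr143 were not analysed here. The longest run of bases shared by the Tyr, Tyrp1 and Dct windows was the 10-base GTCATGTGCT, which begins 23 bases before the Tyr start, 48 before the Tyrp1 start and 152 before the Dct start. It is most of the M-box, AGTCATGTGCT, the classic MITF element of the tyrosinase family. The 3 stretches are shown so that the shared run, in capitals, can be compared with its flanks, each 5′ to 3′ on the gene's strand (chr7:87493516-87493545 minus, chr4:80834155-80834184 plus and chr14:118052379-118052408 minus).
Tyr: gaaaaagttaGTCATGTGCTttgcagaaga
Tyrp1: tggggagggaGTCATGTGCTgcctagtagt
Dct: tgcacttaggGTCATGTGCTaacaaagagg

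Outside the capitals the 3 stretches differ. Searched on both strands, the 10-base run was in 61 of 32851 windows (0.186%) and the full M-box in 7 windows (0.0213%), of which 2 were those of Tyr and Tyrp1. The M-box letters searched were the run shared by the Tyr and Tyrp1 windows. Presence of the 2 runs in the windows they were taken from was thus fixed beforehand. The 6-base core CATGTG, which lies inside both, was in all 7 windows of these genes and in 14.2% of all windows. For Tyr, Tyrp1 and Dct this follows from the shared run. In the windows of Slc24a5, Oca2 and the upstream Trpm1 start the core stood without the longer run, as CACATG (its reverse complement) in the first 2. The downstream Trpm1 start also held the E-box CACGTG, present in 7.15% of all windows. These stretches are at chr2:125068102-125068131, chr7:56239561-56239590, chr7:64153682-64153711 and chr7:64185218-64185247, all on the plus strand, and show how little the flanks have in common. A match of letters is a description and not a binding site.
Slc24a5: aaggagactgctCACATGattcagcataag
Oca2: ttgagcttgctaCACATGgctggaattttc
Trpm1, upstream start: ccaaatcctcatCATGTGcccaccccaaac
Trpm1, downstream start: agtaattggaagCACGTGgctcctcttcct

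In the tumours some of the 10 genes were among the most abundant transcripts, and others were not. Together the 10 took 1.83%, 1.91% and 2.46% of all counts in tumours 1, 2 and 3. In a whole tumour, fewer cells of a type and less RNA per cell cannot be told apart.

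Among the enzymes, Dct (ENSMUSG00000022129, chromosome 14, 118012790 to 118052244), which encodes dopachrome tautomerase, had the highest counts, at 6376, 6837 and 8803 CPM in tumours 1, 2 and 3. Tyrp1 (ENSMUSG00000005994, chromosome 4, 80834123 to 80851719) was at 4251, 4356 and 4875 CPM. Tyr (ENSMUSG00000004651, chromosome 7, 87424771 to 87493512), the enzyme that starts the pathway, was well below its 2 relatives at 504, 594 and 895 CPM. The highest tumour exceeded the lowest 1.15 times for Tyrp1 and 1.78 times for Tyr, so that the enzymes did not vary by the same amount.

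Pmel (ENSMUSG00000025359, chromosome 10, 128704195 to 128720238), the fibril protein, was at 4582, 4833 and 6508 CPM. Mlana (ENSMUSG00000024806, chromosome 19, 29697824 to 29708634) was the steadiest of the 10 genes, at 673, 622 and 704 CPM, with a coefficient of variation of 6.18%. The transporter gene Slc45a2 (ENSMUSG00000022243, chromosome 15, 11000721 to 11029233) was at 885, 938 and 1248 CPM. Slc24a5 (ENSMUSG00000035183, chromosome 2, 125068124 to 125088677), a potassium-dependent sodium and calcium exchanger, was at 409.6, 394 and 617 CPM. Oca2 (ENSMUSG00000030450, chromosome 7, 56239760 to 56536518), which underlies the pink-eyed dilution locus, was much lower, at 41.3, 48.7 and 84.0 CPM, and had the widest spread, with a coefficient of variation of 39.3%.

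Gpr143 (ENSMUSG00000025333, chromosome X, 152781921 to 152808646), a receptor of the melanosome membrane mutated in ocular albinism, was at 36.5, 28.1 and 49.8 CPM. Trpm1 (ENSMUSG00000030523, chromosome 7, 64153835 to 64269775), a cation channel of melanocytes and of retinal bipolar cells whose gene contains Mir211, was at 501, 461 and 798 CPM. For all 10 genes tumour 3 was the highest of the 3, with total-count CPM and with TMM-scaled values (trimmed mean of M values, a scaling that allows for a few dominant genes). Its level was between 108.7% (Mlana) and 187% (Oca2) of the mean of tumours 1 and 2. It was also the tumour with high muscle and low adipocyte markers, whose part in this was not tested.

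Levels of different genes were compared per length as TPM (a share of all transcripts after division by merged exon length). The order, from the highest, was Pmel, Tyrp1, Dct, Mlana, Slc45a2, Slc24a5, Tyr, Trpm1, Gpr143 and Oca2. Pmel was at 7792 ± 1604 TPM (SD, n = 3) and ranked 6th of all genes, Tyrp1 at 5343 ± 440 TPM (SD, n = 3) and Dct at 4188 ± 770 TPM (SD, n = 3). Tyr was at 315 ± 99.7 TPM (SD, n = 3), 460th of all genes. At the low end, Gpr143 was at 64.3 ± 19.1 TPM and Oca2 at 49.3 ± 19.8 TPM (SD, n = 3 each). Trpm1, Gpr143 and Oca2 ranked 1305th, 2867th and 3677th of all genes. The ranges of neighbours overlapped for Tyrp1 and Dct and for Gpr143 and Oca2, and for no other neighbours. With the longest transcript as the length, Dct (5352 TPM) passed Tyrp1 (4165 TPM) and the other 8 ranks were the same. Trpm1 (259 TPM) was then close to Tyr (278 TPM), and the overlap of ranges was not examined with this length.

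**Figure D1:**
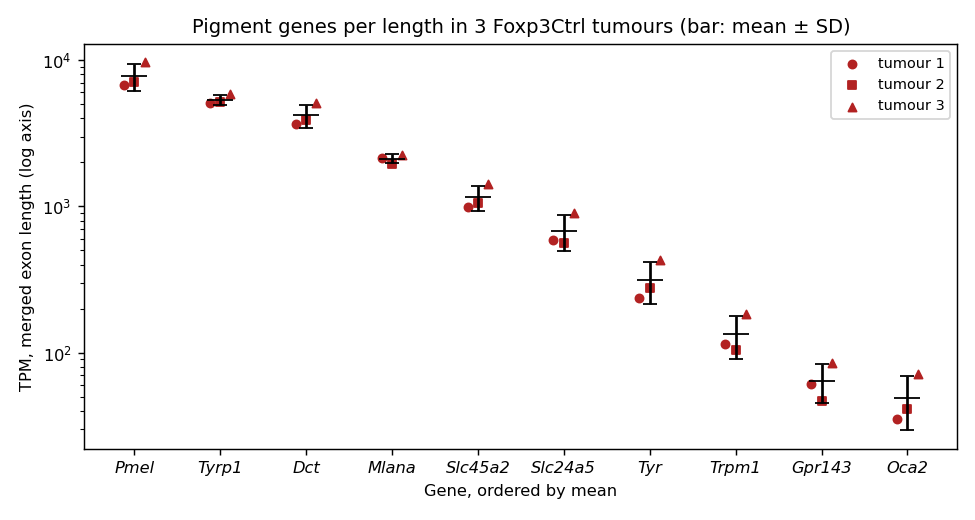
TPM per gene (log axis) in the 3 Foxp3Ctrl tumours, with points for tumours and bars for the mean and SD, ordered by mean. Levels fall from 7792 TPM for Pmel to 49.3 TPM for Oca2, and tumour 3 is the highest point for every gene.

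In the draining nodes the genes fell into 2 kinds. Pmel, Slc24a5 and Trpm1 had counts in every node, between 148 and 477, 51 and 92, and 71 and 140 counts. Tyr had between 1 and 24 counts. The other 6 genes were at or within a few counts of 0 in most nodes, and Gpr143 and Oca2 never exceeded 2 and 1 counts. The floor of 3 counts used below is the expected count that 0 observed counts still allow. Intervals and floors here cover counting error only.

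Dct, Tyrp1, Mlana and Slc45a2 set 1 node apart. Dct had 0, 3 and 282 counts in Foxp3Ctrl nodes 1, 2 and 3, and 11, 0 and 1 counts in Foxp3ΔJag1 nodes 1, 2 and 3. Tyrp1 had 0, 3 and 63 counts in the Foxp3Ctrl nodes and 6, 1 and 0 counts in the Foxp3ΔJag1 nodes. Foxp3Ctrl node 3 was thus far above the other 5 nodes for these 2 enzymes, and Foxp3ΔJag1 node 1 was a distant second. Mlana had 1, 3 and 37 counts in the Foxp3Ctrl nodes and 2, 0 and 1 counts in the Foxp3ΔJag1 nodes. Slc45a2 had 0, 0 and 29 counts, and 1, 0 and 0 counts. Again only Foxp3Ctrl node 3 was above 3 counts for these 2 genes. In CPM it was at 7.95 for Dct, 1.78 for Tyrp1, 1.04 for Mlana and 0.818 for Slc45a2.

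**Figure D2:**
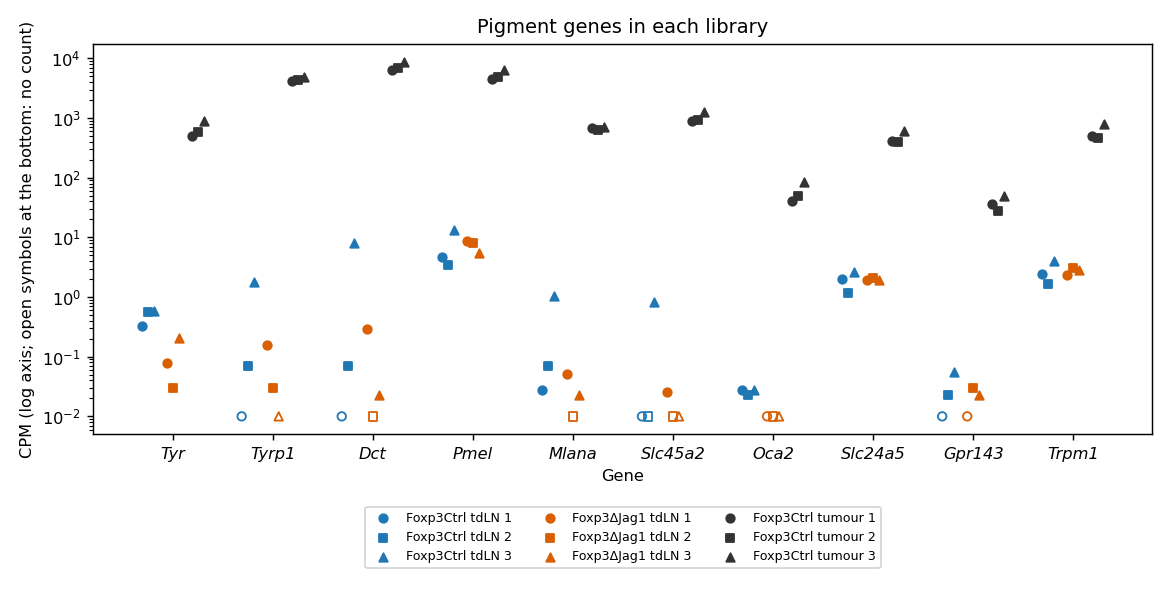
CPM of the 10 genes (log axis) in 3 Foxp3Ctrl nodes, 3 Foxp3ΔJag1 nodes and 3 Foxp3Ctrl tumours, 1 symbol per library, open symbols at the bottom for libraries with no count. Every tumour lies above every node, and the blue triangle of Foxp3Ctrl node 3 stands alone among the nodes for Tyrp1, Dct, Mlana and Slc45a2.

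The genes of the melanocyte lineage, a list of 15 transcription factors and receptors, gave a partly similar picture. The transcription factor gene Pax3 had 0, 1 and 9 counts in the Foxp3Ctrl nodes and 0, 1 and 0 counts in the Foxp3ΔJag1 nodes. Mc1r, the receptor that switches melanocytes to dark pigment, had 1, 0 and 8 counts, and 1, 0 and 0 counts. Sox10, a neural crest factor also made by glia, was less selective, with 1, 33 and 112 counts, and 8, 24 and 5 counts. Tfap2b had 0, 54 and 218 counts in the Foxp3Ctrl nodes although the tumours were at 0.187 to 0.399 CPM. Mitf did not follow node 3, at 5.78, 10.3 and 8.55 CPM in the Foxp3Ctrl nodes and 7.63 to 7.72 CPM in the Foxp3ΔJag1 nodes. In all, 9 of the 15 genes had their highest node level in Foxp3Ctrl node 3, as did all 10 pigment genes by total-count CPM and 8 by TMM-scaled values. For Oca2 this rests on 1 count in each Foxp3Ctrl node, and for Gpr143 on 2 counts against 1. Tyr had 21 counts in node 3 and 24 in Foxp3Ctrl node 2. The share of all genes highest in node 3 was not computed, so such counts, here and below, are a description.

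Part of the keratinocyte markers was also high in that node. Of 12 keratinocyte markers 7 were highest there, with Krt5 at 3.78 CPM and Krt14 at 3.05 CPM. In Foxp3Ctrl node 2 these keratin genes were at 1.51 and 1.16 CPM, and at 0 to 0.0781 CPM in the other 4 nodes. Dsg3, Krt10, Lor, Sbsn and Sfn were not highest in node 3, where Sfn was at 37.2 CPM against 44.2 CPM in Foxp3Ctrl node 2. Of 8 hair follicle markers 2 were highest there, and the 5 follicle keratin and inner sheath genes Krt25, Krt27, Krt33a, Krt35 and Krt71 had no count in any node. Of 8 Schwann cell markers 0 were highest there, and the summed level was 171 CPM against 165 to 204 CPM in the other nodes. What part other cells had in the pigment transcripts was not tested.

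Set against the tumour of the same mouse, node 3 did not carry the 4 genes in the tumour's proportions. Its level as a percentage of the level in tumour 3 was 0.0903% for Dct (95% exact Poisson interval of the node count 0.0801 to 0.102%). For Tyrp1 it was 0.0364% (0.0280 to 0.0466%), and for Mlana 0.148% (0.104 to 0.204%). Slc45a2 lay between, at 0.0655% (0.0439 to 0.0941%). The interval of Tyrp1 was below those of Dct and Mlana. Dct counts were 4.48 times Tyrp1 counts in node 3 and at most 1.81 times in the 3 tumours. Of the summed counts of these 4 genes, Tyrp1 made up 15.3% in node 3 (exact binomial interval 12.0 to 19.2%) and 31.2% to 34.9% in the tumours. These values describe 1 node, with no replicate check.

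The genes with counts in every node stood at another level. Trpm1 in the nodes of mice 1, 2 and 3 was at 0.483%, 0.358% and 0.495% of the tumour of the same mouse, and Slc24a5 at 0.497%, 0.300% and 0.421%. Pmel was at 0.102%, 0.0711% and 0.207%. Tyr was at 0.0656%, 0.0939% and 0.0662%, with no excess in mouse 3, where it was close to Slc45a2 (0.0655%). In mice 1 and 2, Dct was at 0 and 0.00102% and Tyrp1 at 0 and 0.0016%, so that within 1 mouse the genes differed widely in this percentage.

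**Figure D3:**
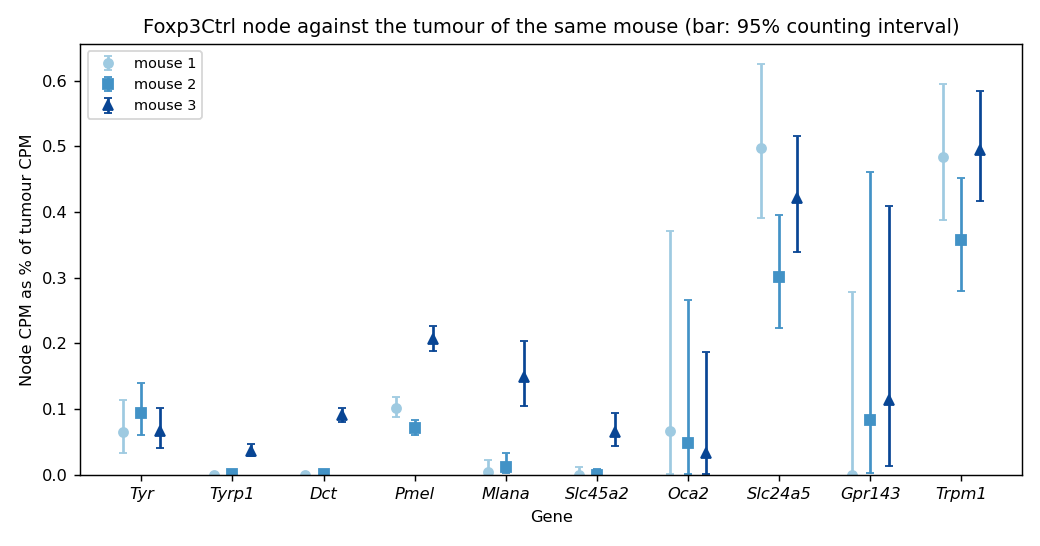
Node CPM as a percentage of tumour CPM in each of the 3 Foxp3Ctrl mice, with 95% counting intervals of the node count. Slc24a5 and Trpm1 lie between 0.300% and 0.497% in all 3 mice, whereas Tyrp1, Dct, Mlana and Slc45a2 rise from the axis in mouse 3 alone.

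Per length, the order in the nodes was also not that of the tumours. Over the 6 nodes Pmel was at 9.59 ± 4.95 TPM and Slc24a5 at 2.53 ± 0.629 TPM (SD, n = 6 each). Trpm1 was at 0.555 ± 0.171 TPM (SD, n = 6). Dct, at 0.726 ± 1.69 TPM (SD, n = 6), had its place from Foxp3Ctrl node 3, at 4.16 TPM.

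The counts of Pmel and Slc24a5 in nodes have a neighbour to be read with them, since the strand setting of the counting is not given in the sources used here. The end of Pmel overlaps by 105 bases the end of Dgka, a diacylglycerol kinase gene of T cells on the opposite strand (chromosome 10, 128720134 to 128744855). Dgka was at 422, 386 and 610.4 CPM in the Foxp3Ctrl nodes, at 632, 535 and 537 CPM in the Foxp3ΔJag1 nodes and at 9.45 to 12.5 CPM in the tumours. Pmel was at 4.68, 3.44 and 13.5 CPM, and at 8.62, 8.08 and 5.46 CPM, in the same nodes. Pmel thus ran between 0.890% and 2.20% of Dgka, and over the 6 nodes, which share library depth and cell makeup, log2 Pmel and log2 Dgka had a Pearson r of 0.89 and a Spearman rho of 0.89. With Cdk2, which overlaps the start of Pmel by 837 bases, r was -0.40. Cdk2 hardly varied over the nodes, from 51.7 to 57.4 CPM, so this r says little.

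**Figure D4:**
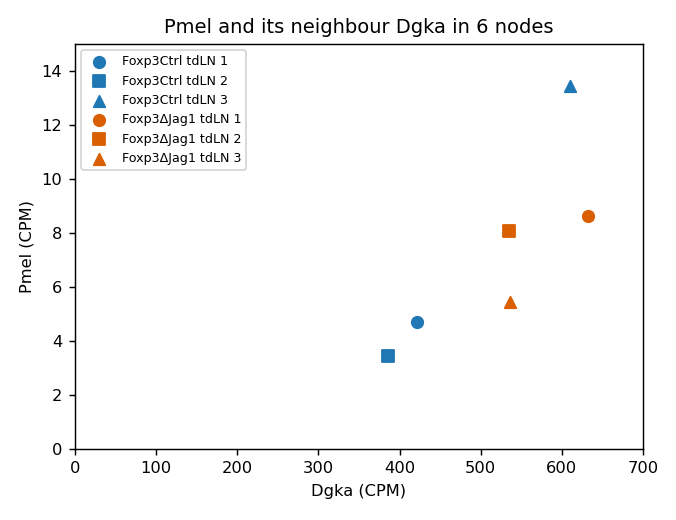
Pmel CPM against Dgka CPM in the 6 nodes, 1 symbol per library. The 2 nodes lowest in Dgka (386 and 422 CPM) are the 2 lowest in Pmel, and Foxp3Ctrl node 3 is the highest in Pmel at 13.5 CPM.

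Slc24a5 overlaps Myef2, on the opposite strand (chromosome 2, 125084628 to 125123661), by 4050 bases. Myef2 was at 30.2 to 42.7 CPM in nodes and at 147 to 181 CPM in tumours. Slc24a5 ran between 3.92% and 6.07% of Myef2 in nodes, with r = 0.92 and rho = 0.71 over the 6 nodes, and was at least 260 percent of it in the tumours. Whether reads of these neighbours reached the 2 pigment genes was not tested. Trpm1 overlaps no other protein-coding gene, and the source of its counts in nodes was not tested either.

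The comparison of Foxp3Ctrl tumours with Foxp3Ctrl nodes placed the pigment genes among the largest differences of the transcriptome. All 10 were higher in tumours with edgeR's quasi-likelihood test at an adjusted p under 0.05, and no tumour overlapped a node. Of all 18566 genes tested 35.6% were called higher, 37.6% were called lower and 36.5% had tumours above all nodes, so the count alone says little and the sizes carry the result. The median log2 fold change was 10.67 over the 10 genes and -0.05 over all genes. All 10 passed the filter on low counts through the tumours, where they are high.

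Each edgeR SE is the size of the log2 fold change divided by the square root of the test's F statistic. Where counts are few it can be smaller than the counting error. Tyrp1 had a log2 fold change of 12.97 ± 1.22 (SE, edgeR adjusted p = 0.000201), 3rd of all genes. Slc45a2 followed with 12.01 ± 0.97 (adjusted p = 9.38e-05) and Dct with 11.56 ± 1.92 (adjusted p = 0.00242). Without Foxp3Ctrl node 3 the log2 fold change was 16.75 for Tyrp1 and 17.45 for Dct. Their SE (0.40 and 0.48) understates the error, since each gene had 3 counts in all over 2 nodes. From those counts alone the fold was 118307 for Tyrp1 (95% counting interval 40482 to 573684) and 191882 for Dct (65658 to 930454). With no count of Slc45a2 in the 2 nodes left, that gene was at least 26722-fold higher in tumours, against a floor of 3 counts over both nodes. Mlana had 10.90 ± 0.82 (edgeR adjusted p = 6.38e-05) with all nodes. Without node 3 it had 13.61 ± 0.24, an SE too small for 4 counts over 2 nodes. The values also depended on the fit. With all nodes limma-voom gave log2 fold changes of 15.17 for Tyrp1, 15.15 for Dct, 14.33 for Slc45a2 and 12.15 for Mlana. DESeq2 gave an SE of 1.31 for Tyrp1, 2.16 for Dct, 2.19 for Slc45a2 and 1.23 for Mlana. With the mouse as a block in edgeR Dct had 12.78 ± 1.72 (adjusted p = 0.00361), and without Foxp3Ctrl node 2 Slc45a2 had 11.39 ± 0.94 (adjusted p = 0.000302).

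The other 6 genes depended less on that node. Oca2 had a log2 fold change of 10.99 ± 0.48 (edgeR adjusted p = 1.24e-06), Tyr 10.43 ± 0.35 (4.07e-07) and Gpr143 10.39 ± 0.45 (9.42e-07). For Oca2 and Gpr143 the nodes gave 3 counts each, so that the folds from counts were 2160.4 (counting interval 739 to 10479) and 1426 (487 to 6915). The SE with DESeq2 was larger for both, at 0.88 for Oca2 and 0.87 for Gpr143. Without node 3 Gpr143 had 11.23 ± 0.57. Pmel had 9.62 ± 0.66 (adjusted p = 2.57e-05), and 10.36 ± 0.31 without node 3. Slc24a5 with 8.01 ± 0.34 (1.24e-06) and Trpm1 with 7.85 ± 0.40 (4.10e-06) had the smallest differences of the 10 and ranked 127th and 136th of all genes.

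**Figure D5:**
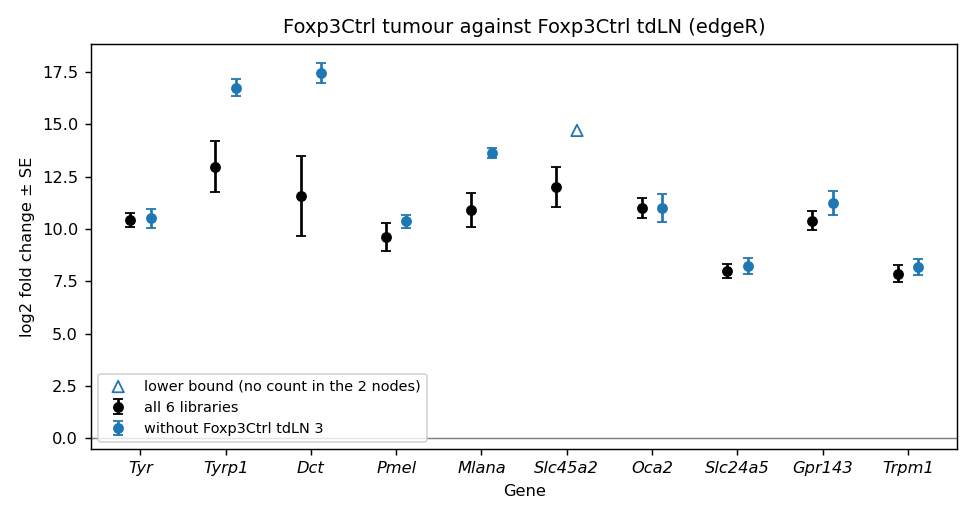
edgeR log2 fold change with SE of Foxp3Ctrl tumours against Foxp3Ctrl nodes, with all 6 libraries (black) and without Foxp3Ctrl node 3 (blue), the open triangle being a lower bound. Tyrp1, Dct and Mlana rise by 2 or more log2 units without that node, and Slc24a5 and Trpm1 stay near 8.

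Other genes of the melanosome were not uniformly higher. Of 25 genes for melanosome biogenesis and transport, 13 rose, 2 fell and 10 did not pass (edgeR, adjusted p under 0.05). Of all genes tested 35.6% rose and 37.6% fell. The median log2 fold change was 0.27 over the 25 genes against -0.05 over all genes. Rab38, a small GTPase that delivers enzymes to melanosomes, rose by 5.96 ± 0.20 (SE, adjusted p = 2.64e-07) and Gpnmb, a relative of Pmel also made by macrophages, by 9.24 ± 0.45 (adjusted p = 2.93e-06). Cd63, a tetraspanin needed for sorting of Pmel, rose by 2.81 ± 0.16 (adjusted p = 2.78e-06). The 2 that fell, named after their values were seen, were Slc7a11, a cystine transporter (-2.51 ± 0.20, adjusted p = 1.38e-05), and Hps6, a subunit of a sorting complex (-0.39 ± 0.14, adjusted p = 0.0386). Without Foxp3Ctrl node 3, 11 rose and 2 fell. Over all alternatives the number that fell was between 1 and 3. The number that rose was between 9, without both libraries of mouse 3, and 15, with all 3 groups in 1 fit.

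Of the 15 lineage genes, 12 rose, 1 fell and 2 did not pass, with a median of 2.90, where 35.6% of all genes rose and 37.6% fell. The counts were also 12 and 1 without Foxp3Ctrl node 3, and 2 fell without Foxp3Ctrl node 1. Mitf rose by 6.45 ± 0.27 (SE, edgeR adjusted p = 8.73e-07), from 5.78 to 10.3 CPM in nodes to 607 to 809.6 CPM in tumours. The receptor tyrosine kinase gene Met rose by 7.23 ± 0.20 (adjusted p = 1.46e-07). Lef1, a transcription factor that T cells also express, fell by 7.46 ± 0.20 on the log2 scale (adjusted p = 1.28e-07), from 86.4 to 136 CPM in nodes. Tumour 3, the highest for all 10 pigment genes, was the lowest of the 3 for Mitf, at 607 CPM against 656 and 809.6 CPM.

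The comparison of Foxp3ΔJag1 with Foxp3Ctrl nodes bears on whether pigment transcripts in the node changed with the deletion. Only 4 of the 10 genes had enough counts to be tested, and 0 of 4 were called by edgeR, DESeq2 or limma-voom, where 0.038% of 18440 genes were called by edgeR. At an unadjusted p under 0.05 each tool had 1 of the 4, Tyr, where 3.15% of all genes were under it with edgeR, 3.3% with DESeq2 and 3.2% with limma-voom. Tyr had 12, 24 and 21 counts in the Foxp3Ctrl nodes and 3, 1 and 9 counts in the Foxp3ΔJag1 nodes. In CPM these were 0.330, 0.557 and 0.592, and 0.0781, 0.0302 and 0.202, so that every Foxp3ΔJag1 node was below every Foxp3Ctrl node. The groups did not overlap in this direction for 3.18% of all genes tested. The difference in Tyr was -2.16 ± 0.55 on the log2 scale (edgeR, SE), with an adjusted p of 0.953 and an unadjusted value of 0.00377. An exact permutation test of 3 against 3 cannot go below p = 0.1. The adjusted p was 0.586 with DESeq2 and ranged from 0.209 to 1 over the alternatives. Without Foxp3ΔJag1 node 3 the log2 fold change of Tyr was -3.09 ± 0.63 (SE, edgeR adjusted p = 0.973).

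Pmel, Slc24a5 and Trpm1 had log2 fold changes of 0.04 ± 0.52, 0.02 ± 0.28 and 0.04 ± 0.30 (SE, edgeR adjusted p = 0.996, 0.995 and 0.992). Their groups overlapped: Slc24a5 was at 2.04, 1.18 and 2.59 CPM in Foxp3Ctrl and 1.95, 2.05 and 1.95 CPM in Foxp3ΔJag1 nodes. Trpm1 was at 2.42, 1.65 and 3.95 CPM and at 2.37, 3.05 and 2.87 CPM. These 3 differences changed sign with single nodes left out. Without Foxp3Ctrl node 3, Pmel had 0.82 ± 0.24 (edgeR adjusted p = 0.203) and Dgka was higher in all 3 Foxp3ΔJag1 nodes than in Foxp3Ctrl nodes 1 and 2, at the values given above. Dct, Tyrp1, Mlana and Slc45a2 did not pass the filter on low counts. Fitted without it they had log2 fold changes from -4.61 to -3.23 and an edgeR adjusted p of 0.883 each, and their Foxp3Ctrl counts come almost wholly from node 3.

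The wider lists gave no call in the node comparison either. With edgeR 0 of 25 melanosome biogenesis genes and 0 of the 12 lineage genes tested passed, as with DESeq2 and limma-voom. At an unadjusted p under 0.05 there were 2 and 4 with edgeR, 2 and 4 with DESeq2 and 1 and 3 with limma-voom, against 3.15%, 3.3% and 3.2% of all genes. The smallest p were those of Hps1 (log2 fold change 0.18 ± 0.08 SE), Mlph (-2.07 ± 0.80) and Slc7a11 (0.38 ± 0.18), and of Kit (-0.29 ± 0.09), Tfap2a (-2.53 ± 0.78) and Erbb3 (-0.53 ± 0.17), all with an edgeR adjusted p of 0.953. These fold changes are given with all nodes only. Kit, Tfap2a and Erbb3 were each highest in Foxp3Ctrl node 3, at 38.0, 2.06 and 14.7 CPM. In the other nodes they were at no more than 34.5, 0.627 and 10.7 CPM. Mlph, which links melanosomes to the motor Myo5a, was at 1.29, 3.85 and 12.1 CPM in Foxp3Ctrl and 1.67, 1.21 and 1.23 CPM in Foxp3ΔJag1 nodes, so that Foxp3Ctrl node 3 was the highest. It was so for only 3 of the 25 melanosome biogenesis genes (Mlph, Hps3 and Lyst, the last 2 named after their values were seen), whereas Foxp3Ctrl node 2 was the highest for 10 and Foxp3ΔJag1 node 1 for 7.

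Of 13135 other protein-coding genes with a mean of at least 1 CPM in nodes, those whose log2 CPM over the 6 nodes was most like that of the summed pigment genes included Arhgap12, mt-Nd1, Srebf1 and D16Ertd472e. Their Pearson r lay between 0.99 and 1.00 and their Spearman rho between 0.89 and 1, as a description over 6 nodes. The summed level was 9.53, 7.08 and 32.3 CPM in Foxp3Ctrl and 13.5, 13.3 and 10.6 CPM in Foxp3ΔJag1 nodes, and Pmel was the largest part of it in each. The like genes moved over a narrow range, Arhgap12 between 35.9 and 39.9 CPM and mt-Nd1, a mitochondrial gene, between 1594 and 2417 CPM, each with its highest value in Foxp3Ctrl node 3. That peak follows from how the genes were picked, since the summed level is highest in node 3. Whether the top r of 13135 genes over 6 nodes exceeds chance was not tested.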

How the data were processed

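The authors deposited 1 table of raw whole-number counts per Ensembl gene for nodes and 1 for tumours, not normalized. Reads were handled with Trimmomatic 0.36, STAR 2.5.2b and Subread 1.5.2 with featureCounts on build GRCm38, per the submitters' processing notes. Neither annotation nor strand setting is given in the sources used here, and the library protocol does not say whether poly(A) RNA was selected or ribosomal RNA removed. All samples carry batch 1 and had RNA integrity over 9. Among the tumour columns, 3 matched no labelled sample and were not used.

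Symbols, positions and lengths came from GENCODE M21 (49056 of 49315 identifiers matched). CPM used total counts. Tests used edgeR 4.0.16 in R 4.3.3 (quasi-likelihood, TMM, filterByExpr, robust dispersion, Benjamini-Hochberg over all genes tested, FDR 0.05) on the 2 groups compared, without a block. Intervals are exact at 95%. Alternatives were other scalings, filters and fits, DESeq2 1.42.0, limma-voom (limma 3.58.1), a replicate block and leaving out each library. Named genes were the 10 pigment genes, the 3 smallest p of each other list and comparison, and the 5 genes most like the summed level in nodes (log2 of CPM plus 0.1), of which 1 is not reported here. The genes and lists were chosen with earlier results of these data known.

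Foxp3Ctrl nodes and tumours pair by mouse code in the library names, and the correlation of their deviations from group means was -0.083, 0.127 and -0.003 for the 3 mice. Replicates differed beyond sampling noise (chi-square per degree of freedom 18.8 to 83.6). On simulated data the tumour against node fit called 52 of 99 2-fold and 86 of 99 4-fold changes, with 14 false calls. The node comparison called 59 of 98 and 87 of 94, also with 14 false calls. The simulation held no outlying library such as Foxp3Ctrl node 3.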

Additional observations from a re-analysis of the deposited data

How the results depend on the processing

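All 10 pigment genes kept their call and direction between tumour and node under each of 16 alternatives. The log2 fold change stayed between 7.60 and 8.22 for Slc24a5 and Trpm1, whereas that of Dct ranged from 10.98 to 17.45 and that of Tyrp1 from 12.40 to 16.75, both highest without Foxp3Ctrl node 3. With the replicate block all 10 were called, among 13375 genes. In the node comparison no pigment gene was called under any alternative. The count over all genes, 7, was 44 with DESeq2, 16 with no filter and 11 with the replicate block, whose numbers pair different animals, and between 6 and 21 with single libraries left out (21 without Foxp3Ctrl node 3, 16 without Foxp3ΔJag1 node 2). In counts of the 2 wider lists, also chosen after seeing the data, 2 melanosome biogenesis genes fell between node and tumour, against 1 with no filter, 1 to 2 with single libraries left out, and 3 with library size only, with the CPM filter and without mouse 3. Of the lineage genes 1 fell, and 1 to 2 with single libraries left out. With single libraries left out of the node comparison the log2 fold change ranged from -0.29 to 0.82 for Pmel, from -0.23 to 0.26 for Slc24a5, from -0.21 to 0.40 for Trpm1 and from -3.09 to -1.79 for Tyr. The cause was not tested. Depth limits Oca2 and Gpr143 in nodes, at 2 counts or fewer. Without both libraries of mouse 3, an alternative chosen after seeing the data, all 10 were called.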
